A study of Mus musculus with 14 samples.

Results

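Chromatin accessibility at 5 genes of the CD4 and CD8 lineage choice was examined in Treg cells with and without degradation of the Foxp3 protein. The genes were Cd4, Zbtb7b, Tox, Cd8a and Cd8b1. Their windows were taken from the ATAC-seq count table by position alone, as those whose centre had one of these genes as its nearest protein-coding start site within 100 kb. This gave 168 windows of 240778 in the table, of which 17 were nearest to Cd4, 16 to Zbtb7b, 80 to Tox, 38 to Cd8a and 17 to Cd8b1. Each window spans the same length of DNA, and overlapping windows share reads, so that the 168 windows form 108 separate regions.

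All mice carried the Foxp3-AID allele, in which Foxp3 is fused to an auxin-inducible degron and is expressed with ZsGreen and Cre, and all received 5-ph-IAA, the ligand that starts degradation. For its accessibility analysis the paper describes Foxp3-AID/WT mice on day 7, with Treg cells sorted by ZsGreen. It states that in heterozygous females each Treg cell expresses either the wild-type or the AID allele, and that the wild-type cells are unaffected by 5-ph-IAA. Degradation needs the TIR1(F74G) protein, which the ROSA26-TIR1(F74G) mice made from a ROSA26 allele opened by Cre and which the ROSA26-WT mice lacked. These genotypes are written R26TIR1(F74G) and R26WT. Treg cells of adult mice, from spleen together with lymph nodes, were taken after 3 days of treatment (4 R26TIR1(F74G) and 4 R26WT libraries) or after 7 days (3 and 3). Because TIR1 is turned on through Foxp3-driven Cre, degradation is limited to cells that have expressed Foxp3. The cells were sorted as CD4+, so the presence of CD4 on the cell surface was a condition of entry and is no result. The labels give no activation state. The study sorted resting and activated cells on day 7, and which of these the libraries hold is not known here.

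CD4 and CD8 are the co-receptors that bind MHC class II and class I, and mature T cells with an alpha-beta receptor usually keep one of them and silence the other. Cd4 encodes the CD4 chain, and Cd8a and Cd8b1 encode the chains of the CD8 dimer. Zbtb7b encodes ThPOK, the transcription factor that holds T cells in the CD4 lineage and represses CD8 lineage genes, and Tox encodes an HMG-box factor needed early in the development of CD4 lineage cells in the thymus. Runx3 acts in the opposite lineage, where it silences Cd4 and Zbtb7b and supports CD8 expression, and Treg cells arise from the CD4 lineage.

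Promoter sequences of Zbtb7b and Cd8a are shown with the windows they overlap. The start-site window had 18.4 CPM at Zbtb7b and 1.33 CPM at Cd8a. The sequences are from RefSeq on GRCm38.p6, run 5′ to 3′ on the strand of the gene, and lie at chr3:89393329-89393628 (minus strand) and chr6:71373177-71373476 (plus strand). Capitals mark matches to 1 of 6 short motifs searched on both strands.
Zbtb7b: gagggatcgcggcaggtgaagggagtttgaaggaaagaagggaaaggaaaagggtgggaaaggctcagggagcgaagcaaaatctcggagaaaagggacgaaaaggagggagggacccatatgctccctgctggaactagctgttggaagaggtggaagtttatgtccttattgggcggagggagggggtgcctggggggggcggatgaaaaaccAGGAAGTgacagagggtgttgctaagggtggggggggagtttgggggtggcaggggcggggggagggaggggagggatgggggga
Cd8a: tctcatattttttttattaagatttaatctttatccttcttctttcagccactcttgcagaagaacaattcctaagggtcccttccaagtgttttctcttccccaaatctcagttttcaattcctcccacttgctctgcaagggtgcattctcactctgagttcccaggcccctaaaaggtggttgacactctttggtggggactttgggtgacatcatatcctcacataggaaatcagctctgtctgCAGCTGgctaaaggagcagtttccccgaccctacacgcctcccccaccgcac
The match in the Zbtb7b promoter was the ETS core AGGAAGT, which 9.35% of 32851 promoters of the same length held. The match in the Cd8a promoter was the E-box CAGCTG, held by 16.3%. Neither sequence had a match to the RUNX core TGTGGT (16.8% of promoters), the GATA core AGATAA (11.2%), the forkhead core TGTTTAC (3.65%) or the TATA box TATAAA (13.6%). G and C made up 59.7% of the Zbtb7b sequence and 46.7% of the Cd8a sequence, against a median of 52.7%. The Zbtb7b sequence overlapped 2 windows and the Cd8a sequence 1. Most of the Zbtb7b sequence, with the ETS match, lay over the window at +267 bp (4.93 CPM). Only its 5′ end reached the start-site window at -32 bp (18.4 CPM). A second RefSeq start of Zbtb7b, further into the gene at chr3:89387622-89387921, overlapped 0 windows, and its sequence held 1 match to the RUNX core. Of the members, promoter sequences were found for Zbtb7b and Cd8a.

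Total counts per library ran from 5653289 to 20184487, and the lowest library of R26TIR1(F74G) on day 3 and of R26WT on day 7 (6348754) were the shallowest. Mean counts of the 168 windows ran from 10.1 to 342, and 3 windows had no read in at least 1 library. Accessibility is given as CPM, reads in a window scaled to a common library size, with TMM factors over 14 libraries. All 5 T cell marker genes examined had a window within 1 kb of the start site, with 8.09 to 16.6 CPM. Their summed level was 60.5 to 68.5 CPM in R26WT and 42.3 to 59.3 CPM in R26TIR1(F74G) on day 3, which did not overlap, and 59.4 to 61.8 CPM and 56.95 to 63.6 CPM on day 7, which did. Of 5 Treg cell markers, Il2ra, Ctla4 and Ikzf2 had one, at 13.03 to 15.2 CPM, and Foxp3 and Tnfrsf18 had none there. On day 3 the Treg sum was 40.3, 44.9, 42.7 and 47.45 CPM in R26WT and 48.2, 37.1, 36.45 and 35.4 CPM in R26TIR1(F74G). On day 7 it was 49.5, 43.9 and 43.3 CPM against 43.7, 39.5 and 40.7 CPM. The ranges overlapped on both days, with most R26TIR1(F74G) libraries below the R26WT range. Start-site windows of other lineages were at 3.12 CPM or below. They were found for 2 of 5 CD8 T cell genes other than the members (summed level 1.64 to 3.22 CPM over 14 libraries), 1 of 4 NK cell genes (1.69 to 3.70), 2 of 6 B cell genes (1.83 to 3.81), 4 of 6 myeloid genes (6.14 to 8.74) and 2 of 4 erythroid genes (2.52 to 3.90). The range of each of these sums in R26TIR1(F74G) overlapped that in R26WT on day 3, and on day 7 as well.

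The 5 genes differed widely at their start sites, and the order did not follow the CD4 and CD8 division. The window nearest to the start site averaged 23.0 CPM at Tox (+319 bp, positive values being downstream), 18.4 CPM at Zbtb7b (-32 bp), 12.5 CPM at Cd8b1 (-96 bp), 4.55 CPM at Cd4 (+56 bp) and 1.33 CPM at Cd8a (0 bp). The median over the start-site windows of 11444 genes was 14.8 CPM, and that of all windows in the table was 1.80 CPM. Thus Cd8a, with the lowest start site of the 5, stood at the 7.03rd percentile of start-site windows and Tox at the 66.7th. Within each library Cd4 was above Cd8a, by 2.05 to 6.77 times, in 14 of 14 libraries. Cd8b1 was above Cd4 in 14 of 14 libraries, by 2.03 to 3.64 times, although it encodes a CD8 chain. Tox was above Zbtb7b in 14 of 14 libraries by 1.06 to 1.41 times, but the ranges of these neighbours overlapped, whereas those of Zbtb7b and Cd8b1, of Cd8b1 and Cd4, and of Cd4 and Cd8a did not. CPM of windows with different sequences can differ in how readily the transposase cuts and reads map, which was not tested.

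**Figure D1:**
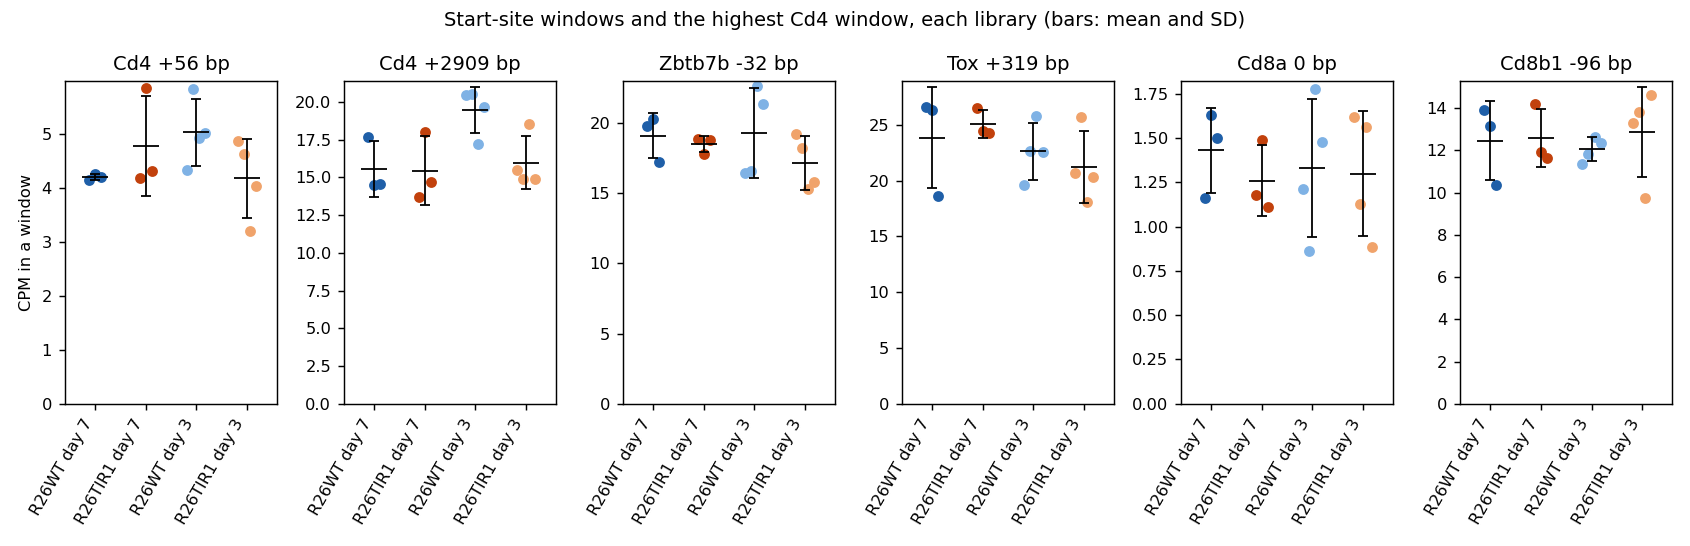
CPM in each library (points) at the start-site window of each gene and at the highest window of Cd4, by genotype and day, with the mean and SD of each group. Each panel has its own axis from 0, and at the start-site windows the genotypes overlap on both days while levels run from 1.33 CPM at Cd8a to 23.0 CPM at Tox.

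Cd4 was most open inside the gene. Its window at +2909 bp (chr6:124885238-124885439) held 27.0% of the gene's summed signal and averaged 16.8 CPM, at the 95.2nd percentile of all windows, against 4.55 CPM at the start site. The Cd4 silencer, through which Runx factors shut the gene in CD8 T cells, is known to lie in the first intron, but exons and introns were not assigned here. A further group of 6 windows lay about 10 kb upstream, from -10302 to -9737 bp, at 1.32 to 3.19 CPM. Of the 17 windows, 15 were above the median of the whole table.

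At Zbtb7b all 16 windows were above the table's median and 11 were above its 75th percentile, with a median of 4.95 CPM. Besides the start site, windows at +4229 to +4693 bp reached 5.72 to 9.32 CPM and those at +11181 to +11487 bp 2.36 to 5.03 CPM, all inside the gene. Windows upstream, at -478 bp (9.73 CPM) and -916 bp (5.61 CPM), were outside the gene.

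Tox is a long gene, and 61 of its 80 windows were inside it or within 1 kb of its start site, where 93.2% of the summed signal of the 80 lay. After the start site the most open were at +730 bp (20.2 CPM), +15663 bp (19.4 CPM), +20869 bp (15.6 CPM) and +89257 bp (13.7 CPM). A further 296 windows nearest to Tox lay beyond 100 kb, the closest at 100075 bp against 99792 bp for the farthest one kept, and were not used here. The gene spans chr4:6686353-6991557 with its start at 6991557. The part of Tox itself that lies beyond 100 kb is thus not covered by its values here. The other genes had no window beyond that distance.

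Cd8a was weakly open throughout. Its 38 windows ranged from 0.681 to 3.08 CPM, 0 were above the 75th percentile of the table and 34 were below its median. The highest was at +3433 bp inside the gene (chr6:71376760-71376961), with 3.08 CPM, and 23 lay 11815 to 22506 bp upstream, between Cd8b1 and Cd8a, at 0.876 to 2.005 CPM. Enhancers of the Cd8 genes are known between the pair, and no window was matched to one here. At Cd8b1 the signal was gathered at the start site, which held 30.9% of the sum, with 5.75 CPM at -403 bp and 3.34 CPM at +436 bp. The windows inside Cd8b1 more than 1 kb from its start were at 0.788 to 1.52 CPM, in the range of those of Cd8a.

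**Figure D2:**
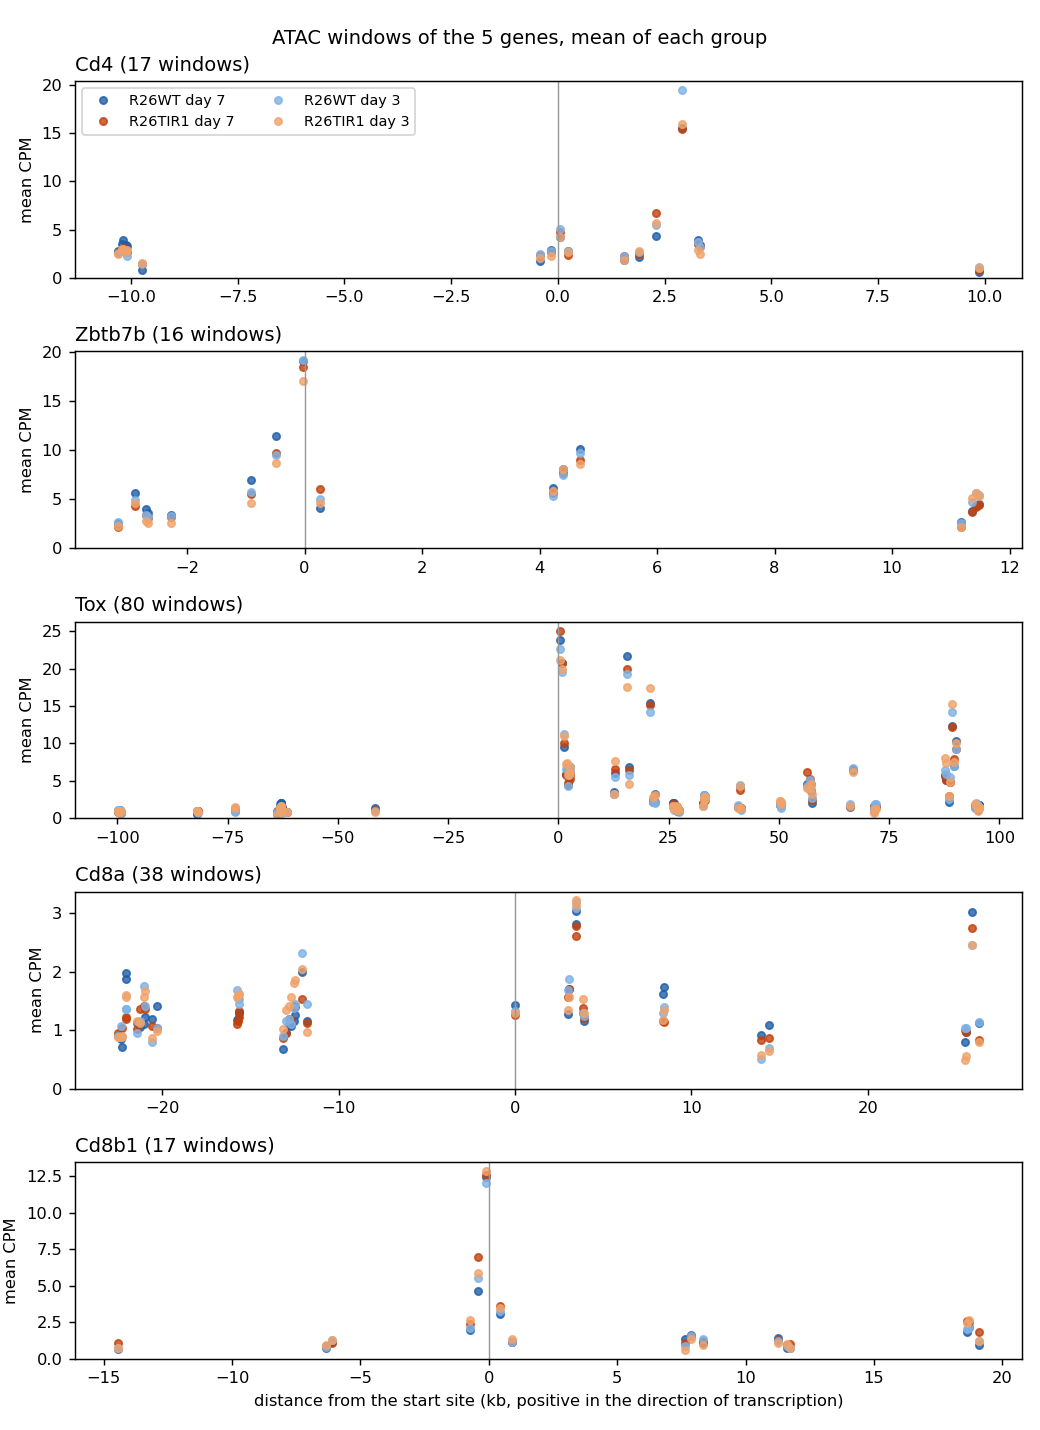
Mean CPM of each window in the 4 groups against its distance from the start site in kb, one panel per gene with its own axes. Signal stands at the start sites of Zbtb7b, Tox and Cd8b1, at +2909 bp in Cd4 (16.8 CPM), and at no window above 3.08 CPM on average at Cd8a.

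On day 7, 7 days into Foxp3 degradation, no member window passed the test between R26TIR1(F74G) and R26WT. Of 168 windows tested, 0 passed edgeR's quasi-likelihood test at an adjusted p under 0.05, where 0.00463% of 237811 windows did (11 windows). At an unadjusted p under 0.05 there were 7 members (4.17%, 5 higher and 2 lower), against 5.95% of all windows. Log2 fold changes had a median of -0.04 over the members and -0.01 over all windows. The libraries of both genotypes did not overlap at 14 windows (8.33%, 7 higher and 7 lower), against 11.8% of all windows. DESeq2 called 0 members and 0% of all windows.

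The start-site windows showed this directly. At Zbtb7b the R26WT libraries had 19.8, 20.3 and 17.2 CPM and the R26TIR1(F74G) libraries 18.9, 17.8 and 18.8 CPM, a log2 fold change of -0.06 ± 0.13 (SE). At Cd8a they had 1.16, 1.63 and 1.499 CPM against 1.18, 1.49 and 1.11 CPM (-0.18 ± 0.33). The genotypes overlapped at both. At Cd8b1 values of 13.9, 13.1 and 10.3 CPM stood against 14.2, 11.9 and 11.6 CPM (-0.02 ± 0.14), and at Tox 26.6, 26.3 and 18.6 CPM against 26.5, 24.4 and 24.2 CPM (0.04 ± 0.13). At Cd4, R26WT had 4.13, 4.25 and 4.199 CPM and R26TIR1(F74G) 4.17, 5.84 and 4.30 CPM (0.18 ± 0.19). Adjusted p at these 5 windows, by edgeR's quasi-likelihood test, was between 0.940 and 0.996.

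The member window with the smallest p on day 7 was in Cd4, at +2295 bp (chr6:124885852-124886053). The R26WT libraries had 4.005, 4.88 and 4.05 CPM and the R26TIR1(F74G) libraries 6.04, 7.15 and 6.88 CPM. All R26TIR1(F74G) libraries were above all R26WT libraries, by a log2 fold change of 0.61 ± 0.18 (SE), but the adjusted p was 0.592 by edgeR's quasi-likelihood test. On day 3 the same window had 5.19, 5.29, 6.08 and 5.19 CPM in R26WT and 6.29, 5.96, 5.81 and 4.83 CPM in R26TIR1(F74G), and the groups overlapped (0.06 ± 0.17, adjusted p = 0.965). The difference between the days was 0.55 ± 0.24 on the log2 scale, with an adjusted p of 0.766. The neighbouring highest window of Cd4, at +2909 bp, had 17.7, 14.5 and 14.5 CPM in R26WT and 13.7, 18.0 and 14.7 CPM in R26TIR1(F74G) on day 7 (-0.02 ± 0.14).

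**Figure D3:**
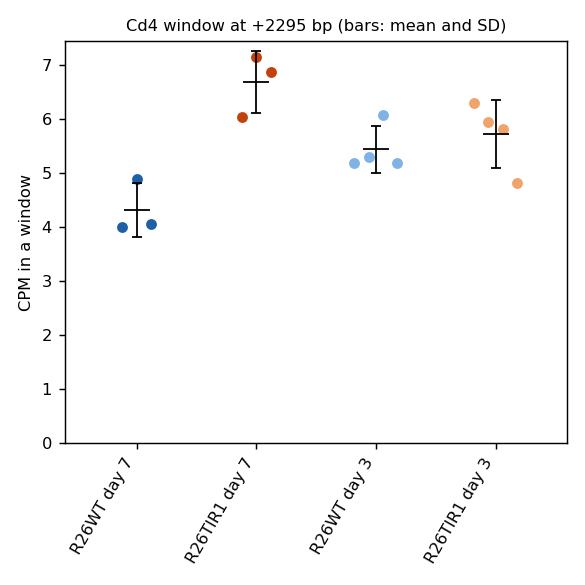
CPM in each library (points) at the Cd4 window +2295 bp by genotype and day, with the mean and SD. The day 7 genotypes do not overlap (4.005 to 4.88 against 6.04 to 7.15 CPM), those of day 3 do, and the day 7 difference has an adjusted p of 0.592.

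Other day 7 members at an unadjusted p under 0.05 were spread over the genes. At Cd8b1 there were 3, all higher in R26TIR1(F74G), at +19101 bp (log2 fold change 0.92 ± 0.32, edgeR adjusted p = 0.724), -14432 bp (0.93 ± 0.44) and -403 bp (0.46 ± 0.20). The first and second of these averaged 1.28 and 0.802 CPM. Zbtb7b had 1 at +267 bp (0.50 ± 0.18), higher in R26TIR1(F74G), while 15 of its 16 windows had a log2 fold change below 0. Of all windows, 116589 of 237811 had one above 0. The 16 windows of Zbtb7b form 10 regions, and overlapping windows share reads, so their signs are not separate observations. Tox had 1 such member at +21885 bp (-0.59 ± 0.23) and Cd8a 1 at -22044 bp (-0.64 ± 0.32). None of these day 7 members passed the adjusted threshold. On day 3 the Tox window at +21885 bp was instead higher in R26TIR1(F74G) (0.50 ± 0.25, edgeR adjusted p = 0.659). Its difference between the days was -1.08 ± 0.35 on the log2 scale (edgeR adjusted p = 0.662).

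On day 3 no member window passed either. Of 165 member windows tested, 0 passed, where 0% of 235515 windows did, and 10 (6.06%, 6 higher and 4 lower) had an unadjusted p under 0.05 against 7.55% of all windows. DESeq2 called 0 members and 0% of all windows on this day too. Libraries of the genotypes did not overlap at 4 members (2.38%), against 4.09% of all windows. The smallest p belonged to a weak window assigned to Cd8a, at +25526 bp (chr6:71398853-71399054), which lies inside the neighbouring gene Rmnd5a. It had 0.779, 1.06, 1.09 and 1.18 CPM in R26WT and 0.360, 0.483, 0.820 and 0.322 CPM in R26TIR1(F74G), which overlapped (log2 fold change -0.996 ± 0.42, edgeR adjusted p = 0.598). The highest Cd4 window, at +2909 bp, had 20.4, 20.5, 17.2 and 19.6 CPM in R26WT and 15.5, 14.9, 18.6 and 14.9 CPM in R26TIR1(F74G). It was lower in 3 of 4 R26TIR1(F74G) libraries than in all R26WT libraries (-0.28 ± 0.13, edgeR adjusted p = 0.619). Of the 10 members, 7 were at Tox, of which 6 were higher and 1 lower, from -0.41 ± 0.18 at +15993 bp to 0.84 ± 0.36 at -73347 bp. The window at -73347 bp overlaps the one at -73407 bp, which is also among the 7, and they share reads. The summed T cell markers, which did not overlap between the genotypes on this day, were lower in R26TIR1(F74G), and their part in these values was not tested.

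**Figure D4:**
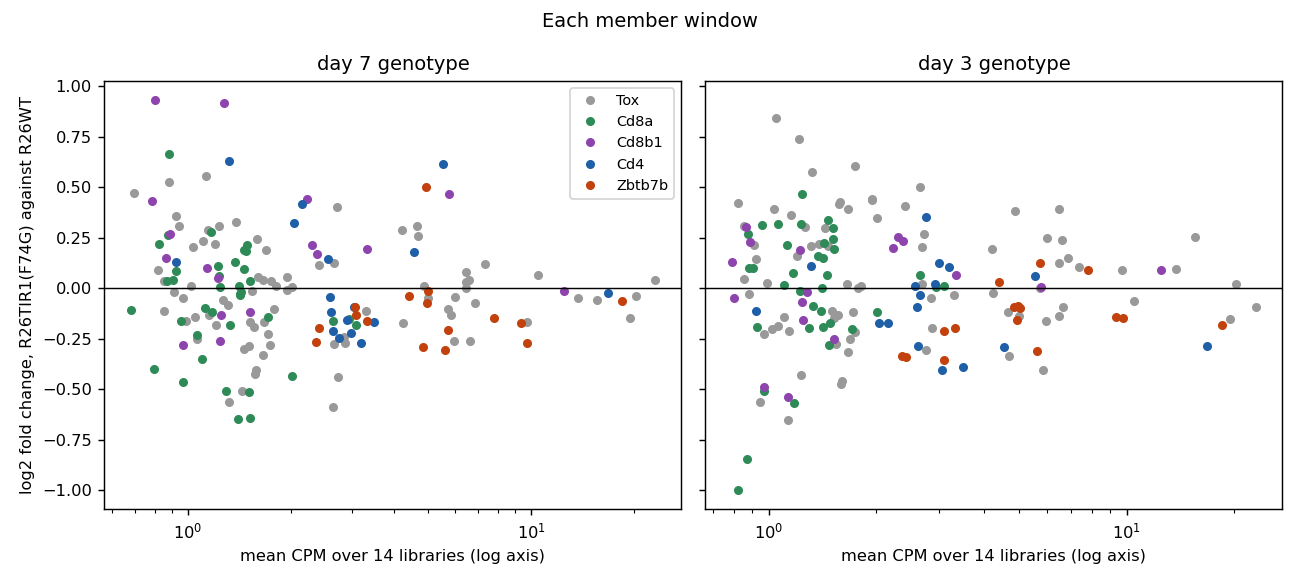
Log2 fold change of R26TIR1(F74G) against R26WT for each member window on day 7 and day 3, against its mean CPM on a log axis, coloured by gene. Points lie on both sides of 0 with a wider spread at low CPM, from -0.65 to 0.93 on day 7 and from -0.996 to 0.84 on day 3.

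With both days in one fit, 0 of 168 members passed against 0.0112% of all windows (27 windows), and 6 (3.57%) had an unadjusted p under 0.05 against 6.73%. The smallest p was again that of Cd4 +2295 bp (0.30 ± 0.12, edgeR adjusted p = 0.653). For the interaction of day and genotype, 0 passed, as 0% of all windows did, with 8 members (4.76%) against 6.32% of all windows at an unadjusted p under 0.05. Between day 7 and day 3, 0 members passed in R26WT (0.003% of all windows, with 11 members, or 6.63%, against 5.25% at an unadjusted p under 0.05). In R26TIR1(F74G), 0 members passed either (0% of all windows, with 10 members, or 5.95%, against 6.96%). With DESeq2 over both days, 14 of 168 members had an adjusted p, of which 0 passed, against 0.505% of the 30712 windows that had one. DESeq2 called 0 members in the interaction and in R26WT, as 0% of all windows in each, and 0 in R26TIR1(F74G), where 0.000836% of all windows (2 windows) passed.

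Summing all member windows of a gene gave tighter limits. Reads shared by overlapping windows count more than once in these sums. Summed levels over 14 libraries were 260.5 to 337 CPM at Tox, 73.0 to 106 CPM at Zbtb7b, 56.3 to 69.6 CPM at Cd4, 42.4 to 60.9 CPM at Cd8a and 30.9 to 46.6 CPM at Cd8b1. These sums rise with the number of windows and are not levels per length. The median of 15877 genes was 39.5 CPM.

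On day 7, summed Cd4 was 62.6, 60.3 and 60.4 CPM in R26WT and 58.4, 66.9 and 62.0 CPM in R26TIR1(F74G), a log2 fold change of 0.03 (95% interval -0.15 to 0.21). Zbtb7b had 104, 100.3 and 96.4 CPM against 93.4, 90.5 and 93.4 CPM. All R26TIR1(F74G) libraries were below all R26WT libraries at Zbtb7b, but the difference of -0.12 (-0.28 to 0.04) did not pass the test (edgeR adjusted p = 0.849). The share of all genes whose genotypes did not overlap was not counted. Among all windows it was 11.8% on this day, but single windows hold fewer reads than sums. How common such a separation is among summed genes is therefore not known here. On day 3 Zbtb7b had 106, 90.6, 93.8 and 100.7 CPM against 104, 94.6, 73.0 and 89.9 CPM, which overlapped (-0.12, -0.31 to 0.07), and over both days the difference was -0.12 (-0.25 to 0.01, edgeR adjusted p = 0.454). Cd8b1 had 39.3, 43.3 and 30.9 CPM in R26WT and 45.5, 43.1 and 42.9 CPM in R26TIR1(F74G) on day 7, which overlapped (0.19, -0.04 to 0.42). Cd8a changed by -0.09 (-0.33 to 0.15) and Tox by -0.02 (-0.19 to 0.15) on day 7. The Cd8a sum is mostly flanking signal. Only 25.3% of it lay inside the gene or within 1 kb of its start, and 27 of its 38 windows were outside any gene and 4 inside another.

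Over the 5 genes the day 7 intervals reached from 0.796 to 1.34 times the R26WT level, and those of day 3 from 0.801 to 1.22 times. Summed levels passed the test at 0 of 5 genes in each of the 6 comparisons. Among all genes 0% passed on day 7, 0.0063% on day 3 (1 gene of 15866) and 0% in the other 4. On day 3 the median log2 fold change of all genes was -0.06, beside -0.14 at Cd4, -0.12 at Zbtb7b, 0.05 at Tox, 0.00 at Cd8a and 0.07 at Cd8b1.

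**Figure D5:**
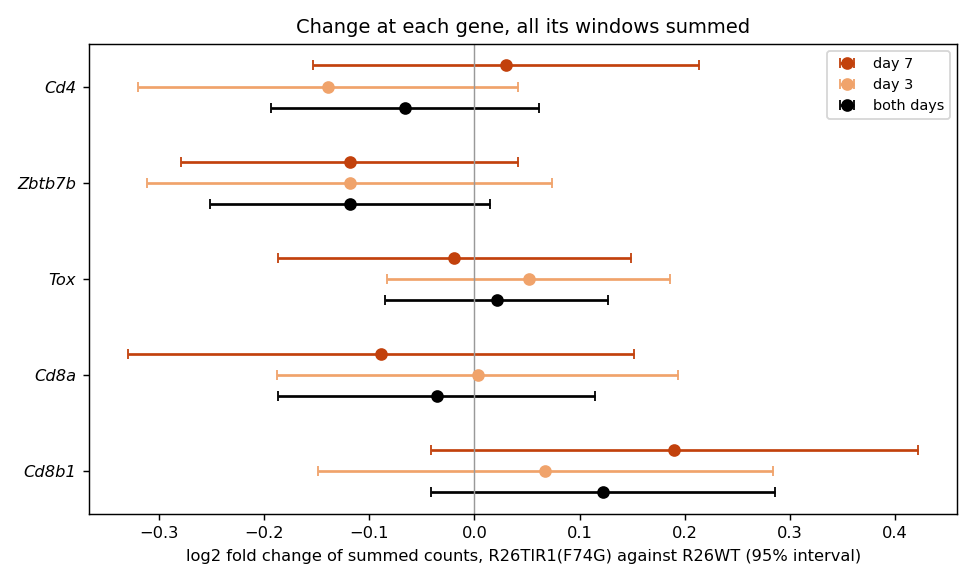
Log2 fold change of summed counts at each gene, R26TIR1(F74G) against R26WT, for each day and for the days together, with 95% intervals. Each interval contains 0, and the points lie between -0.14 and 0.19.

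A list of 22 other genes of the lineage choice was read in the same way on summed counts. It holds factors upstream of Zbtb7b and Tox (Gata3, Myb, Tcf7, Lef1, Tcf3, Tcf12), regulators of the co-receptors (Runx1, Runx3, Cbfb, Patz1, Ikzf1, Bcl11b, Satb1, Zbtb7a, Ets1) and parts of the cytokine and receptor signals (Il7r, Stat5a, Stat5b, Socs1, Cd5, Nfatc1, Egr1). None of the 22 passed in either direction in any of the 3 genotype fits. At an unadjusted p under 0.05 there were 1 on day 7 (4.55%, against 6.08% of all genes), 7 on day 3 (31.8%, against 17%) and 6 with the days together (27.3%, against 12.8%). On day 7, 13 were higher and 9 lower, with a median log2 fold change of 0.02 beside -0.01 over all genes. On day 3, 1 was higher and 21 lower, with a median of -0.10, where 35.6% of all genes were higher and their median was -0.06. Relative to that median, 13 of the 22 were lower and 9 higher. The lowest on day 3 was Runx3 at -0.25, with the smallest adjusted p of the list (edgeR, 0.147).

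By correlation of log2 summed CPM over 14 libraries, among 11156 genes, the genes most like Cd4 were Msn (r = 0.83), Knstrn (0.81) and Mbnl3 (0.79). Those most like Zbtb7b were Rnft1 (0.93), Kpnb1 (0.92) and Capn1 (0.92), and those most like Tox were Mfsd8, Fgf13 and Rab2a (each 0.89). Cd8a was most like Drosha, Zfp951 (each 0.79) and Acvr1 (0.77), and Cd8b1 most like Zfp667, Arid5b (each 0.93) and Rpl7 (0.90). Tox and Cd8b1 had an r of 0.75 with each other and Cd4 and Zbtb7b one of -0.11. The other pairs of members lay between -0.35 (Zbtb7b with Cd8a) and 0.37 (Cd4 with Cd8a). These are descriptions over libraries that differ in depth, with SDs of 0.09 to 0.17 on the log2 scale for the 5 genes.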

How the data were processed

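ATAC-seq was performed on Treg cells of 14 Foxp3-AID mice. The authors aligned reads with Bowtie2 to mm10, called peaks with MACS2, merged reproducible peaks and counted reads at summits with featureCounts, and the deposited values are raw counts per library in windows of equal length. Duplicate handling and transposase offset could not be varied. Every column was matched to a sample by its mouse name.

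Windows were assigned to the nearest protein-coding start site in RefSeq coordinates of GRCm38 (21187 genes with a strand). Exons were not used. The member genes and lists were chosen with earlier results of these data known. Counts were tested with edgeR 4.0.16 (quasi-likelihood, TMM) in R 4.3.3 on windows averaging 10 counts or more, or on counts summed per gene, with Benjamini-Hochberg adjustment at 0.05. DESeq2 1.42.0 was an alternative. Standard errors follow from the fold change and its statistic. The tests were tested on simulated data. Named windows are the highest and the nearest to the start site of each gene and the smallest p of each genotype fit. Others were named after their values were seen. Correlations used a pseudocount of 0.5 and genes of at least 20 summed CPM. P-values measure the spread between these mice, and counting error is that of PCR reads without molecular identifiers.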

Additional observations from a re-analysis of the deposited data

Results flagged for a closer look

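Within the day 3 groups of 4, 1 library stood apart from the other 3 by more than Dixon's 95% critical value in 3 of 28 groups examined, where chance flags about 1.4. At the Cd4 window +2909 bp, replicate 3 of R26TIR1(F74G) had 18.6 CPM and the others 14.9, 14.9 and 15.5 CPM. At the Cd4 window +2295 bp, replicate 3 of R26WT had 6.08 CPM and the others 5.19, 5.19 and 5.29 CPM. Summed over Tox, replicate 1 of R26TIR1(F74G), the shallowest library, had 337 CPM and the others 292, 292 and 294 CPM.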

How the results depend on the processing

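No member window and no summed gene passed the threshold in any of 224 alternatives over the 6 comparisons, which were DESeq2, its size factors, total counts, no filter or a mean count of at least 50, each mouse left out, a replicate block, the prefix of the mouse name, the sequencing index group (day 3), all 14 libraries in the fit, windows within 20 kb and, for genes, joined windows. With DESeq2 over both days 154 of the 168 windows had no adjusted p and could not be called. The smallest adjusted p was 0.222 for windows and 0.254 for genes. The replicate numbers do not pair the mice (correlations of genotype pairs -0.0787 to 0.0652), and with them as a replicate block 0 members were called in each comparison. Of all windows the block called between 1 of 240778 (interaction) and 62 of 239163 (R26TIR1(F74G), day 7 against day 3). Of all genes it called between 0 of 15877 (both days) and 113 of 15873 (R26TIR1(F74G), day 7 against day 3). The block gave 0.62 for Cd4 +2295 bp on day 7. Other alternatives also called more than the main fit. With DESeq2, 108 summed genes passed between the genotypes at day 3, against 1 with edgeR. Of 15866 genes, 2769 had no DESeq2 adjusted p there. With the days together 80 passed against 0, and 16 or fewer in each other comparison. Between the days in R26TIR1(F74G), leaving out replicate 2 of day 3 called 364 of 237414 windows, against 0 in the main fit. Leaving out any other mouse called 5 or fewer there.

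Of 42 log2 fold changes of named windows and genes, 28 kept their sign in every alternative run, and the other 14 did not. The cause of the changed signs was not tested. With the mouse name prefix in the fit, Cd4 +2909 bp (0.0154) and Cd8b1 -96 bp (0.0428) on day 7, Cd8a +3433 bp (-0.0259) and summed Cd8a (-0.0463) on day 3 and Tox +319 bp over both days (0.0074) changed sign. With the replicate block, Cd8b1 -96 bp on day 7 (0.0086) and summed Cd8a on day 3 (-0.0029) did. With a mean count of at least 50, summed Cd4 on day 7 (-0.0033) and Tox +319 bp over both days (0.0033) did. With joined windows, summed Tox on day 7 (0.0001) and summed Cd8a on day 3 (-0.0409) did, and within 20 kb summed Tox over both days (-0.0162) did.

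With each mouse left out, ranges that crossed 0 on day 7 were -0.143 to 0.0905 (Cd4 +2909 bp), -0.0794 to 0.122 (Tox +319 bp), -0.109 to 0.0648 (Cd8b1 -96 bp), -0.0729 to 0.370 (Cd8a +25526 bp), -0.0221 to 0.0764 (summed Cd4), -0.106 to 0.0384 (summed Tox) and -0.155 to 0.041 (summed Cd8a). On day 3 they were -0.0747 to 0.0928 (Cd8a +3433 bp), -0.252 to 0.084 (Cd8a 0 bp), -0.0016 to 0.0753 (summed Tox) and -0.0697 to 0.0491 (summed Cd8a). Over both days they were -0.0852 to 0.0147 (Tox +319 bp), -0.0092 to 0.0454 (summed Tox) and -0.0806 to 0.0161 (summed Cd8a). The start-site window of Cd8a, at 1.33 CPM, had a standard error of 0.33 on day 7, so a change of that size was not detectable there at this depth.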
